A study of Mus musculus with 6 samples.

Results

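The genes described here encode the subunits of the proteasome, the barrel-shaped protease that degrades proteins tagged with ubiquitin. They were taken as all probe sets that the array annotation gives to 1 gene only and whose gene symbol begins with Psma, Psmb, Psmc, Psmd or Psme followed by a digit. This gave 91 probe sets of 44 genes, out of 18193 genes named by such probe sets and 45037 probe sets in all. A symbol rule also takes in Psmc3ip and Psme3ip1, whose products are named for binding a proteasome subunit and are not part of the particle. The only probe set for Psme2 also carries the name of a related copy, so Psme2 was not read. Levels were measured on Affymetrix whole-genome mouse arrays in embryoid bodies, clusters of mouse embryonic stem cells that are left to differentiate. All 6 samples came from the Hoxb4i line, which carries an integrated "tet-on" cassette for HOXB4. They were harvested on day 6, in the induced group after 48 hours with doxycycline at 2 µg/ml begun on day 4, and in the uninduced group without it. Each group holds 3 arrays, and every experiment (A, B or C) gave 1 array to each group; the experiments are what the design text calls biological replicates. All samples come from 1 cell line, and none had doxycycline without the cassette, so HOXB4 and doxycycline itself cannot be told apart.

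The core particle, called 20S, is a stack of rings in which alpha subunits (Psma genes) form the gated outer rings and beta subunits (Psmb genes) the inner rings with the cutting sites. Psmb5, Psmb6 and Psmb7 encode the constitutive cutting subunits, and interferon can lead cells to put Psmb8, Psmb9 and Psmb10 in their places, which gives the immunoproteasome. The 19S regulatory particle caps the core: its base holds ATPases (Psmc genes) that unfold the substrate, and its lid removes the ubiquitin chain. Psmd5, Psmd9 and Psmd10 encode chaperones that help to assemble the base. PA28 (Psme1 and Psme2, or Psme3 in the nucleus) and PA200 (Psme4) are other caps that open the gate. Embryonic stem cells are known for high proteasome activity, and transcription factors such as NRF1 (Nfe2l1) can raise most subunit genes together.

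The bases just before the start site are printed for 6 members: a pair of constitutive cutting subunits, the immune subunits that replace those of Psmb5 and Psmb6, and the 2 genes, Psme3 and Psmc4, that differed between the experiments. They are RefSeq sequences of build GRCm38.p6, 250 bases ending at the base before the annotated start, read 5′ to 3′ on the gene's strand. Capitals mark matches on either strand to 4 motifs: CCAAT, the box bound by NF-Y; TGACNNNGC, the antioxidant response element bound by factors of the NRF1 and NRF2 kind; GAAANNGAA, a shortened form of the interferon-stimulated response element; and TTCNNNGAA, the site bound by STAT factors. Psmb5 lies at chr14:54617996-54618245 on the minus strand and Psmb6 at chr11:70525107-70525356 on the plus strand. Psmb8 lies at chr17:34197945-34198194 on the plus strand and Psmb9 at chr17:34187331-34187580 on the minus strand. Psme3 lies at chr11:101315963-101316212 on the plus strand and Psmc4 at chr7:28050093-28050342 on the minus strand.
Psmb5: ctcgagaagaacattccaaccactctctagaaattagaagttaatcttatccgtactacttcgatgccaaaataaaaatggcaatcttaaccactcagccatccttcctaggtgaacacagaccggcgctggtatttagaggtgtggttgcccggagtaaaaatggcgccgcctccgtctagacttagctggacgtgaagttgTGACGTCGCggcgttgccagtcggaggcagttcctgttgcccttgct
Psmb6: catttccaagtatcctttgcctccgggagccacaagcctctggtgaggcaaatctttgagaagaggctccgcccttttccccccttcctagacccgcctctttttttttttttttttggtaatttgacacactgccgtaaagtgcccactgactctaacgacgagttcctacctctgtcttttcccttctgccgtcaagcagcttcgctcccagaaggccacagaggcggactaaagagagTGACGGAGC
Psmb8: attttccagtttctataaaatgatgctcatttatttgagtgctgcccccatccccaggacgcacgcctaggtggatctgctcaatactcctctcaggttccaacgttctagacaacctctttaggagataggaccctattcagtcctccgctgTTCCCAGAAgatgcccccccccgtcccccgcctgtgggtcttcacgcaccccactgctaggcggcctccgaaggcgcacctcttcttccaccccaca
Psmb9: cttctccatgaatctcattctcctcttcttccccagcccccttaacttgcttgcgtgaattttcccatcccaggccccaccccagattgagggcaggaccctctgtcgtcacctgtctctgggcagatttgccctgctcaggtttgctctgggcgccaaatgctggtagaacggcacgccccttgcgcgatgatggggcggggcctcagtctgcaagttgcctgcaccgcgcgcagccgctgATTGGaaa
Psme3: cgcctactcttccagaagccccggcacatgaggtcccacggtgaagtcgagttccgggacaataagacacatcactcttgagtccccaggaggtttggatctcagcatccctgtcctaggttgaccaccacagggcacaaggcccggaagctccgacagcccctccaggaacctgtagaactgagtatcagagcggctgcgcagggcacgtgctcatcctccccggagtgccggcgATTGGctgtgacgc
Psmc4: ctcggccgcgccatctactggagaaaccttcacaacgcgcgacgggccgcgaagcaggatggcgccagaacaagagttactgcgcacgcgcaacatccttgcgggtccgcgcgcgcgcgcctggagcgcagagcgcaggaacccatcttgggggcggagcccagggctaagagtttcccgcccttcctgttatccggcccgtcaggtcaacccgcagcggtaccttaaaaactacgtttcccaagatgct
Psmb5 and Psmb6 each hold 1 antioxidant response motif, whose first base lies 47 and 9 bases before the start. Psmb8 holds 1 STAT motif 97 bases before it. Psmb9 and Psme3 hold 1 CCAAT box each, 8 and 14 bases before the start, and in Psmc4 none of the 4 sets of letters is in this window. No printed match overlaps another.

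Over 39 such windows of 36 subunit genes, 35.9% held a CCAAT box, against 33.8% of the windows of all 32851 promoters of the same length. The box was in 6 of 12 core windows (50.0%) and in 4 of 15 windows of 19S genes (26.7%). The antioxidant motif was in 12.8% of the subunit windows and 10.2% of all, the interferon-stimulated motif in 7.69% and 7.13%, and the STAT motif in 2.56% and 7.02%. A match is a description of letters and was not tested as a binding site.

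The arrays had been scaled to the same trimmed mean of 500.0 before deposit. The uninduced array of A stood apart: the 3′ control probe set of Actb read 2.88 times the 5′ one there, against 1.26 to 1.48 on the other 5 arrays. Hoxb4 itself had signals of 46.5 and 116.4 in experiment A, 119.8 and 129.5 in experiment B and 113.5 and 175.5 in experiment C (uninduced, then induced, probe set 1451761_at), higher with doxycycline in each experiment. Its other probe set, 1460379_at, was also higher in each. It had 78.2 and 136.3 on the arrays of A, 253.0 and 261.4 on those of B, and 27.6 and 150.7 on those of C. The rise in B was thus small on both probe sets, and that in A takes in the uninduced array that stood apart. On all 6 arrays limma called 0 of 27022 probe sets for doxycycline, so no rise of Hoxb4 passed. The labels do not say whether either probe set of Hoxb4 detects the cassette. Cell type markers moved with the experiments: the summed signal of 7 erythroid markers ranged from 521.5 to 36989 on the uninduced arrays and from 1706 to 26460 on the induced arrays, highest in B. That of 7 neural markers ranged from 881.9 to 10185 and from 556.1 to 9288, highest in C. Single genes weighed most in these sums: Hbb-bh1 read 27951 on the uninduced array of B and Sox2 6163 on that of C. Epor was highest on the induced array of C (241.1), and Pax6 and Neurod1 on the uninduced array of A (1016 and 253.2). The other markers of both lists were highest in the same experiment as their sum. The common blood cell marker Ptprc lay between 4.2 and 36.7 on all 6 arrays. No marker of any list was at 0, but the lowest deposited value is 0.1, so this does not show that a marker was expressed. Of the 10 blood cell markers listed, 4 were bright enough to be tested. They were Itga2b (223.9 to 454.6), Laptm5 (84.6 to 324.0), Coro1a (41.2 to 253.1) and Spi1 (17.8 to 152.5). In such whole cultures, fewer cells of a type and less RNA per cell cannot be told apart.

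Of the 91 probe sets, 75 passed a filter on low signals (a mean over the 6 arrays of at least 60.5) and were tested; they name 41 of the 44 genes, 39 of them true subunits. All 14 core genes and all 17 subunits of the 19S particle were among them. The 3 genes with no tested probe set were Psma8, the alpha subunit of germ cells, with signals of 2.9 to 47.8, Psmb11, the cutting subunit of thymus epithelium, with 5.9 to 81.8, and the immune subunit Psmb8, with 5.6 to 43.4 over its 2 probe sets. Each tested gene is represented below by its tested probe set with the highest mean, and differences are on the scale log2(signal + 18.8), the offset being the 20th percentile of the deposited values.

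By these probe sets the proteasome genes moved together across the arrays, and what they shared most was a low level on the uninduced array of A. Of the 41 genes, 35 lay lower there than the mean of the other 5 arrays, with a median difference of -0.43 log2 units, against 0.038 for all 12452 genes tested. For 28 of the 41 (68.3%) this array was the lowest of the 6, as it was for 22.6% of all genes and for 30.2% of the 4573 genes with a mean signal of at least 1000. The median difference was -0.49 for the core, -0.22 for the 19S subunits and -0.64 for the immune subunits Psmb9 and Psmb10. These are descriptions with no test, and this is also the array with the high Actb ratio, whose part in the result was not tested.

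**Figure D1:**
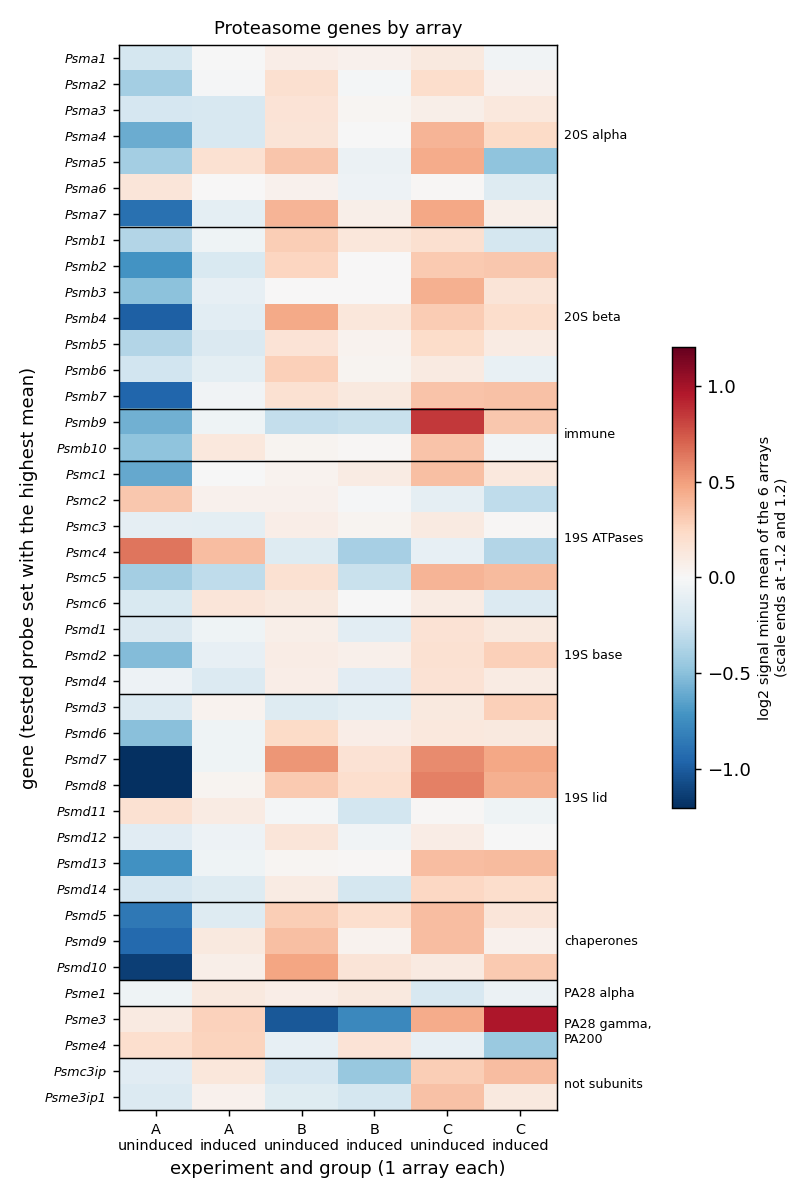
Log2 signal of 41 proteasome genes on each of the 6 arrays, as the difference from the gene's mean over the 6 arrays, with genes in rows grouped by their place in the particle and arrays in columns. Most rows are blue in the first column, where the median was -0.41 for the core and -0.19 for the 19S subunits, and red in the uninduced column of C, where the medians were 0.26 and 0.17.

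Taking each gene against its own mean over the 6 arrays, the median of the core was -0.41 on the uninduced and -0.11 on the induced array of A, 0.19 and 0.026 on those of B, and 0.26 and 0.085 on those of C. The 19S subunits were likewise lowest on the uninduced array of A and highest on that of C, with smaller steps at these ends, at -0.19 and -0.05 in A, then 0.08 and -0.014 in B, and last 0.17 and 0.12 in C. The core therefore lay below the 19S subunits by 0.22 on the uninduced array of A, and the difference of the medians (core minus 19S) ranged from -0.056 to 0.11 on the other 5. The uninduced array of C was the highest of the 6 for 20 of the 41 genes (48.8%), against 16.2% of all genes. As a description, the median correlation between pairs of core genes over the 6 arrays was 0.82, between pairs of 19S genes 0.57 and between pairs of all genes 0.008; without the uninduced array of A these were 0.64, 0.50 and 0.011. The pairs share the same 6 arrays and their scaling.

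In the alpha ring the median on the uninduced array of A was -0.40, and the brightest probe set of Psma6 departed from its neighbours. Psma7 had a signal of 3143 on the uninduced array of A and of 5390 to 8108 on the other arrays. Psma4 had 4821 and 6393 on the arrays of A, 8160 and 7282 on those of B, and 9710 and 8550 on those of C (uninduced, then induced). The arrays of A were the lowest for Psma4 and the uninduced array of C the highest. Psma6 had 13397 and 12187 in experiment A, 12572 and 11629 in experiment B, and 12263 and 10912 in experiment C, so that the uninduced array of A was its highest on probe set 1437144_x_at. Its other bright probe set, 1416506_at, ran with the neighbours, at 4971 on the uninduced array of A and 7061 to 8021 elsewhere. The SD of the first over the 6 arrays was 0.10 log2 units, against a median of 0.276 in the core and of 0.352 over all genes.

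In the constitutive beta ring 7 of 7 genes were lowest on the uninduced array of A by their brightest probe sets. Psmb7, the trypsin-like cutting subunit, had signals of 6497 and 12235 in A, then 14299 and 13718 in B, and last 16051 and 16145 in C. Psmb4, which takes part in assembling the ring, had 5724 on the uninduced array of A and 10332 to 15414 on the others. The uninduced array of A stood at 0.448 and 0.44 of the mean of the other 5 arrays for these genes. Psmb2 had 2850 and 4142 on the arrays of A, 5642 and 4725 on those of B, and 5866 and 5908 on those of C. The steps were smaller for the other cutting subunits. Psmb5, the chymotrypsin-like subunit, had 5088 and 5758 in experiment A, 7276 and 6709 in experiment B, and 7574 and 6986 in experiment C. Psmb6, the caspase-like subunit, had 6374 and 6882 in A, then 9118 and 7606 in B, and last 8050 and 7002 in C. For both genes the arrays of B and C overlapped and those of A lay below them.

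Like the core, the immune subunits were lowest on the uninduced array of A and highest on that of C. Psmb10, which replaces Psmb7, had signals of 210.4 and 332.1 on the arrays of A, 309.0 and 305.8 on those of B, and 388.9 and 294.5 on those of C. Psmb9, which replaces Psmb6, had 48.3 and 78.1 in experiment A, 63.7 and 64.8 in experiment B, and 161.6 and 107.0 in experiment C. Psmb8, which replaces Psmb5, had signals on probe set 1422962_a_at of 42.6 and 23.6 in A, then 9.4 and 14.1 in B and last 5.6 and 7.4 in C, below the filter. Relative to their means, the core lay above the immune subunits by 0.31 on the uninduced array of B and below them by 0.33 on that of C, while on the other 4 arrays the difference (core minus immune) ranged from -0.15 to 0.15 (medians over 14 and 2 genes).

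In the 19S base the brightest probe sets of the ATPase genes Psmc4 and Psmc2 ran against the rest. Psmc4 had signals of 11558 and 9558 on the arrays of A, 6638 and 5612 on those of B, and 6926 and 5810 on those of C on probe set 1416290_a_at, so that both arrays of A were above all others. Psmc2 had 9962 and 8260 in experiment A, 8240 and 7893 in experiment B, and 7412 and 6468 in experiment C, again highest on the uninduced array of A, on probe set 1435859_x_at. Its probe set 1426611_at, of similar brightness, was lowest there, at 5848 against 6091 to 7946 elsewhere. Psmc1, by contrast, had 2217 there and 3395 to 4391 elsewhere. Among the base subunits that are not ATPases, Psmd2, a scaffold and docking subunit, had 5305 and 7119 in A, then 8084 and 7922 in B, and last 8618 and 9250 in C. Psmd4, a receptor for ubiquitin chains, varied less on probe set 1418874_a_at, at 4574 and 4258 on the arrays of A, 5032 and 4336 on those of B, and 5378 and 5083 on those of C. Its probe set 1425859_a_at did not, at 2028 on the uninduced array of A and 3638 to 4450 on the others, a difference of -1.01 beside -0.62 for Psmd2.

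The lid genes Psmd7 and Psmd8 and the chaperone gene Psmd10 lay furthest below the other arrays on the uninduced array of A, by the brightest probe set of each gene. Psmd7, the partner of the deubiquitinase subunit Psmd14, had signals of 646.4 and 2065 in experiment A, 3104 and 2415 in experiment B, and 3184 and 2965 in experiment C on probe set 1451056_at. The uninduced array of A stood at 0.235 of the mean of the other arrays. Psmd8, known as the last subunit to join the lid, had 1554 and 4792 in A, then 5820 and 5415 in B, and last 7146 and 6329 in C, a ratio of 0.263. With that array left out, the SD of Psmd7 over the arrays went from 0.87 to 0.27 and that of Psmd8 from 0.80 to 0.22. Psmd14 itself, with 7077 there and 7046 to 9637 elsewhere, did not stand out. The chaperone gene Psmd10, which encodes gankyrin, had 516.3 and 1209 on the arrays of A, 1606 and 1287 on those of B, and 1243 and 1436 on those of C. Psmd5 had 1189 and 1941 in experiment A, 2672 and 2490 in experiment B, and 2798 and 2404 in experiment C, and Psmd9 had 324.3 on the uninduced array of A and 658.7 to 828.7 on the others. For all 3 chaperone genes that array was the lowest.

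**Figure D2:**
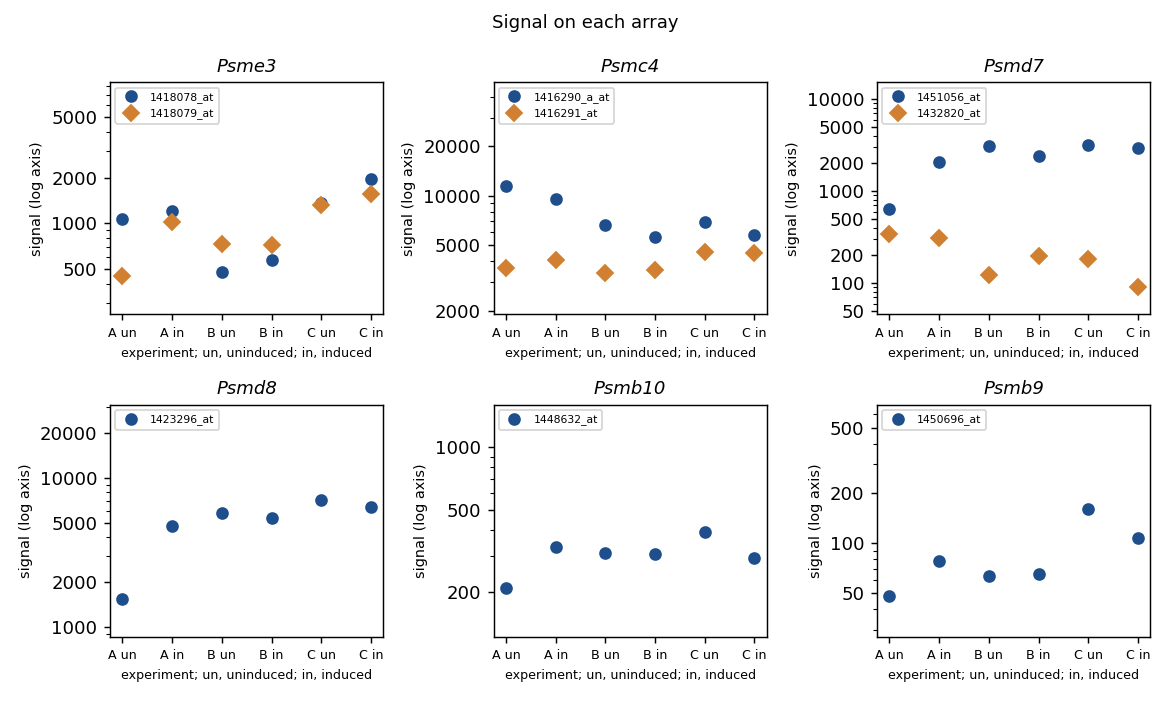
Signal of 6 proteasome genes on each array (log axis), uninduced (un) and induced (in) in experiments A, B and C, 1 point per array and probe set. Psmd7 and Psmd8 fall to 646.4 and 1554 on the uninduced array of A, Psme3 is lowest in B on probe set 1418078_at, and the second probe sets of Psmc4, Psmd7 and Psme3 do not follow the first.

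The activator caps followed the core on some probe sets and not on others. Psme1, the interferon-inducible PA28 alpha subunit, had signals of 3224 and 3642 in A, then 3528 and 3629 in B, and last 2934 and 3179 in C, lowest on the uninduced array of C. Psme3, the nuclear PA28 gamma, had 1072 and 1203 on the arrays of A, 480.5 and 571.6 on those of B, and 1354 and 1957 on those of C on probe set 1418078_at, and the experiments did not overlap. Psme4 had 6831 and 7173 in experiment A, 5571 and 6684 in experiment B and 5571 and 4378 in experiment C on probe set 1426823_s_at, where the uninduced array of A was not low. Its probe sets 1452211_at and 1426824_at were lowest there, at 3592 against 4567 to 5085 and at 1228 against 2524 to 2754, as was probe set 1418079_at of Psme3, given below. The partner genes that are not subunits were highest in C: Psmc3ip, a recombination cofactor, had 903.4 and 1096 in A, then 863.0 and 724.1 in B, and last 1226 and 1293 in C. Psme3ip1 had 1593 and 1852 on the arrays of A, 1611 and 1539 on those of B, and 2280 and 1937 on those of C.

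The low level on the uninduced array of A depended on which probe set of a gene was read. Of the 34 other tested probe sets of these genes, 17 were lower on that array than the mean of the other 5 and 17 higher, with a median difference of 0.0071, and it was the lowest array for 12 and the highest for 13. In 14 of the 19 genes with at least 2 tested probe sets, the probe sets differed in sign there. For Psmd7, probe set 1432820_at had 343.4 and 311.9 in experiment A, 122.8 and 195.2 in experiment B, and 181.5 and 91.5 in experiment C, highest where the other was lowest. For Psmb4, probe set 1438984_x_at had 9871 on the uninduced array of A and 4048 to 8745 on the others. For Psma3, probe set 1441707_at had 629.7 there and 140.1 to 373.4 on the others. In the other direction, probe sets 1424681_a_at of Psma5 and 1423567_a_at of Psma7 were lowest on that array as the representative of Psma7 was. The positions of the probe sets along the transcripts were not analysed here, and 21 of the 44 genes had 1 probe set alone.

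**Figure D3:**
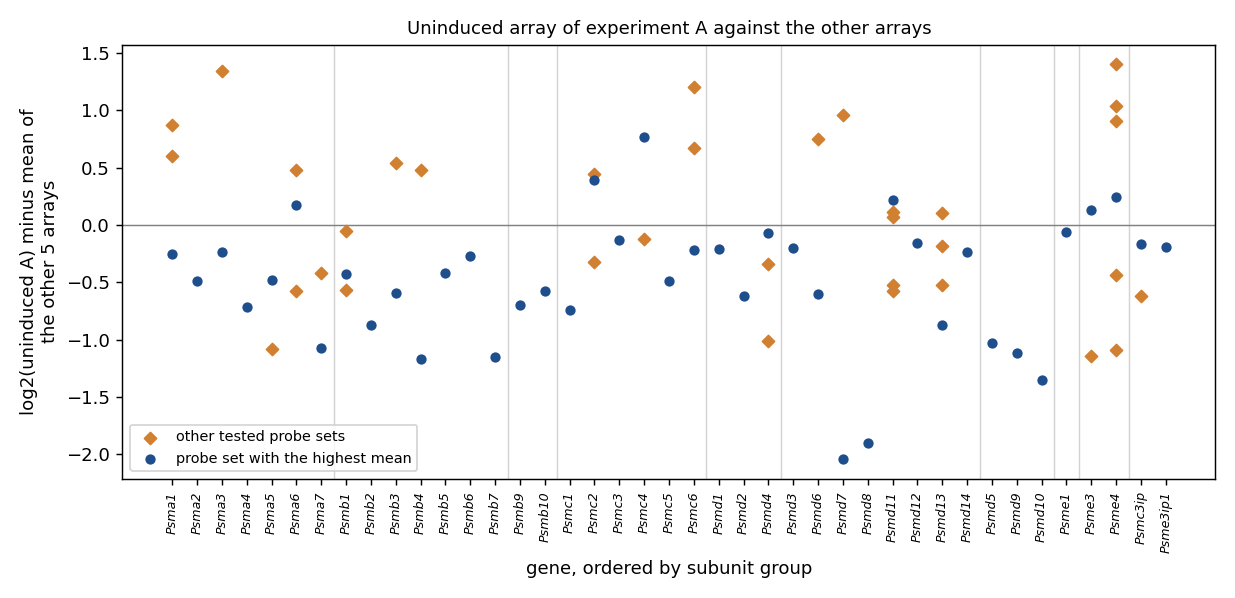
Difference between the uninduced array of experiment A and the mean of the other 5 arrays (log2 scale) for each tested probe set, by gene in the order of the particle. Blue circles are the probe sets with the highest mean, of which 35 of 41 lie below 0, and orange diamonds are the other tested probe sets, of which 17 of 34 do.

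The first comparison asked whether proteasome genes respond when HOXB4 is induced. No member passed: limma called 0 of 75 member probe sets, and 0 of 27022 (0.0%) over the array, at an adjusted p under 0.05. At an unadjusted p under 0.05 there were 0 of 75 member probe sets and 138 (0.511%) over the array. The smallest unadjusted p among members was 0.175, and a 95% interval reached 0.67 log2 units to either side in the median member. This fit has 3 arrays a group and does not pair them by experiment. In it, an observed change smaller than this would not reach an unadjusted p under 0.05 for a typical member. Intervals can be narrower in the fit with the experiment as a block, given below. That of Psmc4 (1416290_a_at) was -0.93 to 0.42 without the block and -0.51 to -0.0053 with it. The adjusted threshold asks for a larger change still. The difference (induced minus uninduced) of the core had a median of 0.0045, that of the 19S subunits -0.042 and that of the immune subunits 0.042, beside 0.016 over all genes. The induced and uninduced arrays did not overlap for 2 of 75 member probe sets (2.67%), against 4.34% of all tested probe sets. They were the representative of Psma6, lower with doxycycline, and probe set 1447843_at of Psmd13, higher.

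The members with the smallest p in each group show the size of the spread in this unpaired fit. Psma6 had a signal of 12744 ± 586.0 on the uninduced arrays and of 11576 ± 639.0 on the induced ones (SD, n = 3 in each group), a log2 difference of -0.14 (95% interval -0.45 to 0.17) that was lower in 3 of 3 experiments (limma, adjusted p = 1). Psmb7 had 12282 ± 5087 and 14033 ± 1974 (SD, n = 3 in each group), a difference of 0.29 (-0.48 to 1.05). Psmd8 had 4840 ± 2922 and 5512 ± 773.0 (SD, n = 3 in each group), a difference of 0.44 (-0.76 to 1.65). In Psmb7 and Psmd8 the SD of the uninduced group was the larger one, and the uninduced array of A was its lowest member. Psmb10 stood at 0.073 (-0.61 to 0.76), Psmc2 at -0.18 (-0.59 to 0.24) and Psmd4 at -0.13 (-0.52 to 0.25). Psmd10 stood at 0.36 (-0.56 to 1.29), Psme1 at 0.11 (-0.29 to 0.51), Psme3 at 0.31 (-0.89 to 1.51) and Psme3ip1 at -0.028 (-0.54 to 0.49).

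By the brightest probe set of each gene, the difference with doxycycline pointed opposite ways in A and in the other experiments. The difference in A takes in its low uninduced array, where the core median was -0.41 against -0.11 on the induced one. This is the array with the high Actb ratio, whose part was not tested. In A, 13 of 14 core genes were higher on the induced array, with a median of 0.39, while in B 14 of 14 were lower, with a median of -0.16, and in C 11 of 14, with a median of -0.17. The 19S subunits had medians of 0.13 in A, of -0.15 in B and of -0.081 in C, and the chaperones 1.05, -0.32 and -0.22. The immune subunits had 0.57, 0.0025 and -0.45. Averaged over B and C, 37 of the 41 genes were lower with doxycycline (90.2%), with a median of -0.14, while 46.9% of all genes and 55.5% of those with a mean signal of at least 1000 were lower. The 4 that were higher in this average were Psmd2, Psmd3, Psme1 and Psme3. Psmb9 was 161.6 without and 107.0 with doxycycline in C but 63.7 and 64.8 in B. The 34 other tested probe sets did not show this: 18 were higher with doxycycline in A, 17 in B and 15 in C, and 17 of 34 were lower in the average of B and C, with a median of -0.0011. In 14 of the 19 genes with at least 2 tested probe sets, the probe sets differed in the sign of the difference over all 6 arrays. These are descriptions, with no test of a list of chosen genes, and the experiments were not compared with one another for it.

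**Figure D4:**
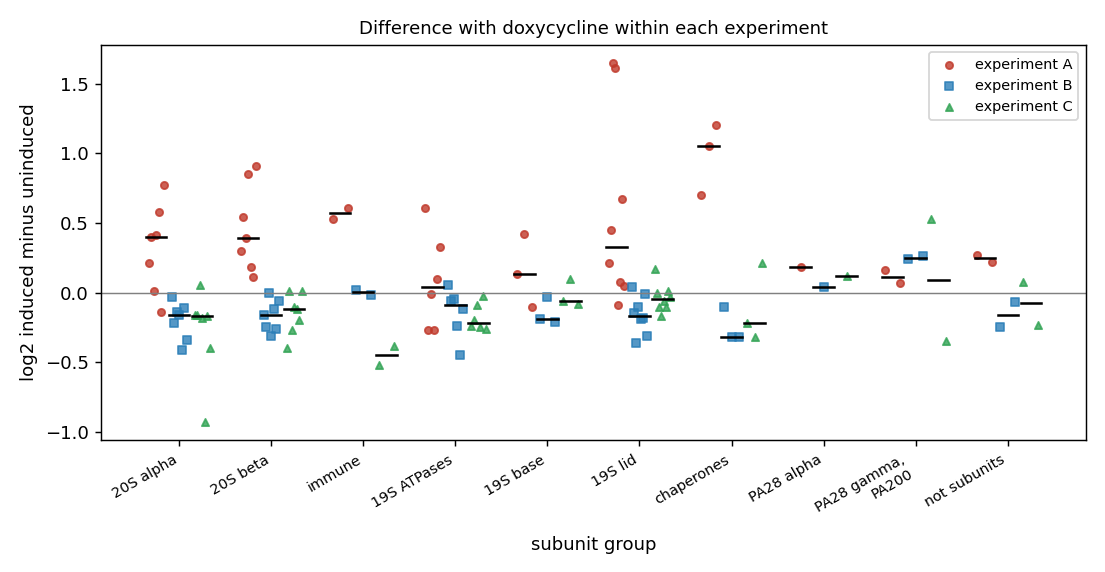
Difference between the induced and the uninduced array (log2 scale) of each gene within experiments A, B and C, by place in the particle. Each point is 1 gene, by its brightest probe set, and each black line the median of its group. In the alpha ring the medians are 0.40 in A, -0.16 in B and -0.17 in C, and in the lid they are 0.33, -0.16 and -0.047.

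With the experiment letter as a replicate block, limma again called 0 of 75 member probe sets (smallest adjusted p = 0.93). At an unadjusted p under 0.05 it gave 1 of 75, against 1065 (3.94%) over the array. That probe set was 1416290_a_at of Psmc4, lower with doxycycline by nearly the same amount in each experiment (-0.27 in A, -0.24 in B and -0.25 in C; limma with the block, adjusted p = 0.93). The other tested probe set of Psmc4, 1416291_at, did not go this way, at 0.16, 0.063 and -0.0094. With both arrays of A left out and the block kept, an alternative chosen after seeing the data, 1 member probe set was called, against 275 (1.02%) over the array. It was 1434356_a_at of the alpha subunit gene Psma5, which fell by 0.67 on the log2 scale (limma, adjusted p = 2.4e-05), with signals of 10588 and 7973 in B and 11444 and 5988 in C. In A it was higher with doxycycline, at 6337 and 9499. The same probe set was the 1 member called when only the uninduced array of A was left out of the blocked fit (adjusted p = 0.000121; 0.929% over the array) or only the induced one (adjusted p = 8.16e-05; 0.977%), since an experiment with a lone array then adds nothing to the difference. Without the block these settings called 0 of 75. Its other tested probe set, 1424681_a_at, differed less, at 6485 and 5884 in B and 6750 and 6188 in C. The fit without both arrays of A has 4 arrays and 1 residual degree of freedom per probe set.

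The second comparison asked whether the members differ between the experiments, with doxycycline as a term of the model. Psme3 and Psmc4 differed: limma's F test called 1 probe set of each, 2 of 75 member probe sets in all (2.67%), against 3138 of 27022 (11.6%) over the array. At an unadjusted p under 0.05 the order was the other way round, with 31 of 75 (41.3%) against 32.5%. The core genes had a median difference between C and B of 0.016, while on the arrays of A they were lower than on those of B and C by medians of 0.35 and 0.38. On the induced arrays alone the latter medians were 0.18 and 0.22.

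Psme3 rose from B to C by 1.60 log2 units (95% interval 1.12 to 2.08; limma, adjusted p = 0.00292) and was lower in B than in A by 1.09 (B minus A -1.09, -1.57 to -0.60; adjusted p = 0.0345) on probe set 1418078_at. Its other tested probe set, 1418079_at, had 454.5 and 1016 in A, then 732.3 and 724.5 in B, and last 1315 and 1565 in C, with a difference between C and B of 0.96 that did not pass (adjusted p = 0.0864). On either probe set every array of C read above every array of B, and they parted on the uninduced array of A. Without both arrays of A, the difference passed on both (limma, adjusted p = 6.15e-18 and 4.85e-08). That fit has 4 arrays and 1 residual degree of freedom per probe set. It called 30.3% of the array in this comparison, against 9.59% with all 6 arrays. Markers of several cell types moved with it. On all 6 arrays, 6 of 7 neural and 3 of 6 pluripotency markers were called higher in C than in B (adjusted p under 0.05). Over the array 4.33% were called higher. The summed signal of the neural markers went from 881.9 and 556.1 in B to 10185 and 9288 in C. In the same comparison 6 of 7 endothelial, 4 of 6 endoderm, 4 of 6 mesenchyme, 3 of 6 cardiac and 2 of 7 erythroid markers were called lower. Over the array 5.26% were called lower. In these lists the markers not called had the same sign as the rest, except Twist1, Meox1 and Epor, which read higher in C. Of the 4 tested blood cell markers, Coro1a was called higher in C (1.83; limma, adjusted p = 0.0225). Laptm5 (-0.84), Itga2b (-0.54) and Spi1 (-0.43) read lower and were not called. The part of all these markers in the result was not tested.

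Psmc4 fell from A to B by 0.78 and from A to C by 0.73 on probe set 1416290_a_at (B minus A -0.78, adjusted p = 0.0229; C minus A -0.73, adjusted p = 0.0238). Its other tested probe set, 1416291_at, had 3655 and 4078 on the arrays of A, 3369 and 3519 on those of B, and 4521 and 4492 on those of C, and so was higher in C than in A. The comparison of C with A called 3 of 75 (4.0%), against 6.82% over the array: besides Psmc4, the ATPase gene Psmc5 was higher in C by 0.75 (0.34 to 1.16; adjusted p = 0.047) and probe set 1441707_at of Psma3 lower (C minus A -1.30, -2.02 to -0.58; adjusted p = 0.0483). Psmc5 had signals of 3611 and 3877 in experiment A, 5454 and 3986 in experiment B, and 6382 and 6264 in experiment C. The other tested probe set of Psma3, its representative, had 11755 and 11846 in A and 14231 and 14761 in C, the opposite direction. B minus A called 2 of 75 (2.67%), against 4.0% over the array, and C minus B 1 of 75 (1.33%), against 9.59%.

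The comparison of C with B does not need the arrays of A, and leaving both of these out took the members called from 1 to 16 of 75 (21.3%), while over the array 30.3% were called. Of the 16, 14 were higher in C (18.7%, against 16.5% over the array). They included the lid genes Psmd3, Psmd13 and Psmd14 at 0.34, 0.35 and 0.28 and probe sets of Psmd11 at 0.53 and 0.32. Psmc5 stood at 0.44 (adjusted p = 0.0013), Psmb3 at 0.28 (0.0466) and both probe sets of Psmc3ip at 0.66 and 0.53. Probe set 1438984_x_at of Psmb4 and the representative of Psme4 were lower, at -0.65 and -0.30. Leaving out only the induced array of A gave 52 of 75 by the F test (69.3%, against 51.1% over the array), and leaving out only the uninduced one gave 20 of 75 (26.7%, against 32.4% over the array).

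Among the catalytic pairs, no tested member was called in any of these comparisons on all 6 arrays. Psmb8 was not tested, so its pair with Psmb5 could not be compared. Between C and B, Psmb9 stood at 0.86 (-0.14 to 1.86; limma, adjusted p = 0.277) and Psmb6 at -0.15 (-0.50 to 0.20), Psmb10 at 0.13 (-0.59 to 0.85) and Psmb7 at 0.20 (-0.32 to 0.72). The intervals overlapped within each of these pairs. Of 11 tested genes of class I antigen presentation and the interferon response, 2 were called higher in C than in B, against 4.33% over the array. They were H2-D1 and H2-K1, which encode class I heavy chains, at 2.01 (limma, adjusted p = 0.00139) and 0.79 (adjusted p = 0.0272). The others were not called: Irf9 (-0.70), Irf1 (-0.35), Tapbp (-0.075) and B2m (-0.05) read lower in C, and Tap2, Tap1, Irf2, Stat2 and Erap1 higher. For doxycycline 0 of 11 were called, against 0.0% over the array. Tap1, the peptide transporter gene beside Psmb9, had signals of 216.1 and 110.1 in A, then 78.6 and 105.1 in B, and last 148.1 and 149.8 in C. Both were higher in C than in B, and on the uninduced array of A Tap1 was at its highest and Psmb9 at its lowest. Across this list 2 of 11 genes were lower on the uninduced array of A than on the others, with a median difference of 0.38, opposite in sign to the proteasome genes.

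Other genes of the pathway were read from lists chosen for it. Of 8 genes for proteasome assembly and inhibition, 7 were lower on the uninduced array of A, with a median of -0.31. Psmg2 and Psmg1, whose products pair as the chaperone of the alpha ring, stood at -1.10 and -0.75, and Psmf1, an inhibitor of the core, at -0.63. Psmg2 had signals of 1430 and 3094 on the arrays of A, 3440 and 2720 on those of B, and 3456 and 2753 on those of C, close in shape to the core. All 3 tested genes of receptors and deubiquitinases bound to the particle were lower there too, with a median of -0.38: Sem1, Usp14 and Uchl5. None of these 11 genes was called in either comparison. Over the array 0.0% were called for doxycycline and 11.6% by the F test.

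Of 7 regulators of proteasome gene transcription, 1 was called by the F test, where 11.6% were called over the array, and 0 for doxycycline. Nfe2l2, which encodes NRF2, fell from B to C (C minus B -1.29; limma, adjusted p = 0.0103), with signals of 1167 and 1604 in experiment A, 1801 and 1844 in experiment B, and 787.8 and 686.4 in experiment C. Nfe2l1, which encodes NRF1, had 1434 and 1123 in A, then 1047 and 1145 in B, and last 1172 and 1023 in C. Nfe2l1 was highest on the uninduced array of A, and the difference between C and B was 0.00054 (adjusted p = 0.999). Of 8 tested genes of ubiquitin shuttles and of the VCP segregase, 5 were lower on the uninduced array of A, with a median of -0.11. In either comparison 0 were called, against 0.0% for doxycycline and 11.6% by the F test over the array. Vcp itself had 10380 there and 11594 to 14215 elsewhere. Of the 6 listed genes of ubiquitin and its activation, only Uba6, an activating enzyme, was tested; it stood at 0.27 on the uninduced array of A and was not called.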

How the data were processed

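Per the labels' protocols, total RNA of the embryoid bodies (4.3 µg) was labelled and hybridized to 1 array per sample. The authors deposited 1 intensity (signal) per probe set and array, made with MAS5 per the submitters' processing notes; its version is not given in the sources used here. On this linear scale, the mean after trimming 2% off each end is 500.0 on every array. No further normalization was applied. Precision is limited by having 3 arrays per group. After 64 control probe sets were left out, 18.8 (the 20th percentile of all values) was added and log2 taken, and probe sets with a mean signal under 60.5 (the 40th percentile) were dropped, so that 27022 of 45037 were tested. Differences of dim probe sets are understated by the offset.

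Genes were named from the annotation of the array, some of it old; current symbols came from RefSeq's GRCm38.p6 gene table, matched on Entrez ID, for 34741 of 34945 probe sets naming 1 gene; 932 naming several and 9160 naming none were not used. The fits used limma 3.58.1 in R 4.3.3 (lmFit, eBayes with an intensity trend, two-sided, Benjamini-Hochberg over every tested probe set at a threshold of 0.05) on all 6 arrays: induced minus uninduced without a block, and experiment plus doxycycline for the F test and the contrasts between experiments. The fits were tested on simulated data with independent noise on each array. The simulation had no odd array and lacked the broad differences between experiments seen here. It was a check of the code and does not show what could be detected in these data. Arrays with the same letter belong to the same experiment per the labels, and the deviations from the group means of arrays with the same letter correlated at 0.45 (A), 0.67 (B) and 0.66 (C), so the letters were taken to pair the arrays. Promoter windows were matched by symbol; 36 subunit genes had one. The interferon-stimulated motif was shortened by its last base after the longer form had been searched in the same windows.

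The members, lists and tests were chosen with earlier results of these data known. The genes given in full are the catalytic pairs, Psme1, the gene of each group with the smallest p in each comparison and all genes called; other members named, such as Psma5, Psma7, Psmb4, Psmc1, Psmd9 and Psmd14, were picked after their values were seen. Alternatives were other offsets, no filter, quantile normalization, no trend, the block, platform symbols, the mean over the probe sets of a gene, and arrays or experiments left out.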

Additional observations from a re-analysis of the deposited data

How the results depend on the processing

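The count of 0 members called for doxycycline was also given by the fit with the experiment letter as a replicate block (0), by the other offsets, no filter, quantile normalization, no trend and platform symbols, and without any 1 array (0 to 0). It was 1 (Psma5) with the replicate block and both arrays of experiment A left out; this and the other settings that join the block with arrays left out were added after seeing the data. With the replicate block and either array of A alone left out it was also 1 (Psma5; 0.929% and 0.977% called over the array), and 0 with an array or both arrays of B or C left out. The pairing by experiment changed no other call for doxycycline in the settings run. The members called between the experiments depended more on the setting. Without a doxycycline term the F test called 6 and C minus A 5. With an offset of 1, without a filter and with quantile normalization C minus A called 1 each. Without the intensity trend the F test called 1, B minus A 0 and C minus A 0. With both arrays of A left out the F test and C minus B called 16 each, with both of B left out the F test and C minus A called 8 each, and with both of C left out the F test and B minus A called 1 each. With 1 array left out, an experiment keeps a lone array that is assumed to vary like the others. Its own deviation cannot be told apart from a difference between experiments. The F test then called 1 to 52, B minus A 0 to 41, C minus A 0 to 45 and C minus B 0 to 15. Without the induced array of A, where the first 3 were at their highest, the calls over the array also rose, to 51.1%, 34.3%, 35.9% and 30.1%. The cause was not tested. The median difference of the uninduced array of A from the others stayed below 0 in the core (-0.54 to -0.43), the 19S subunits (-0.25 to -0.19) and the immune subunits (-0.70 to -0.52) without any 1 other array. The median induced minus uninduced was -0.22 to 0.10, -0.13 to 0.035 and -0.21 to 0.35 in these groups, the lowest without the uninduced array of A.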
